A study of Mus musculus with 6 samples.

Results

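The serine synthesis enzymes and targets of the transcription factor ATF4 were followed as 10 genes, Phgdh, Psat1, Psph, Shmt2, Mthfd2, Atf5, Asns, Chac1, Trib3 and Ddit3, taken by symbol from the feature lists of all 6 matrices. They filled 11 of 32285 rows, because Ddit3 has a row for each of a pair of overlapping gene models. The second Ddit3 row held 0 UMIs (unique molecular identifiers, 1 per captured RNA molecule) in the cells kept. A read that lies in both models is normally assigned to neither, so the Ddit3 level may be understated. The genes were chosen by symbol with their levels in these 6 libraries, with and without EIPA or Dox, already known. Their counts and p-values below therefore describe these libraries and are not independent evidence of a direction.

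The libraries were single-cell 3′ RNA sequencing of small intestinal organoids, grown from 10-week-old mice and collected on day 3. WT organoids were kept in vehicle (DMSO, -EIPA, replicates 1 and 2) or in 5 µM EIPA (+EIPA, replicates 1 and 2), an amiloride derivative that inhibits sodium-proton exchange. Inducible-CRISPR-Cas9 organoids carry a doxycycline-inducible Cas9 system brought in by lentivirus, came from single puromycin-resistant clones, and gave 1 library without Dox and 1 with 2 µg/mL Dox. Live cells were sorted for -EIPA, +EIPA and -Dox, but live GFP-positive cells for +Dox, and no WT organoids with Dox were sequenced, so the sort, Dox itself and the edit cannot be told apart in that comparison.

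ATF4 is the common effector of the integrated stress response. Stress-sensing kinases phosphorylate eIF2alpha, which lowers translation in general but raises translation of the Atf4 mRNA, so ATF4 activity is usually read from its targets and not from its own transcript. Phgdh, Psat1 and Psph encode the consecutive enzymes that make serine from the glycolytic intermediate 3-phosphoglycerate. Shmt2 and Mthfd2 pass the serine carbon into the mitochondrial folate cycle, which feeds purine and thymidylate synthesis in dividing cells. Among the other targets, Atf5 and Ddit3 (CHOP) are transcription factors, Asns makes asparagine, Chac1 degrades glutathione and Trib3 is a pseudokinase that restrains ATF4.

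In the GENCODE annotation of GRCm38, the build of the files, the serine route lies at chr3:98313170-98339990 (Phgdh), chr19:15904678-15947337 (Psat1), chr5:129765558-129787449 (Psph), chr10:127517123-127522444 (Shmt2) and chr6:83305691-83325908 (Mthfd2), each on the minus strand. The other genes lie at chr7:44812256-44816658 (Atf5, minus), chr6:7675169-7693254 (Asns, minus), chr2:119351229-119354381 (Chac1, plus), chr2:152337422-152344032 (Trib3, minus) and chr10:127290774-127296288 (Ddit3, plus). A short element to which ATF4 binds with a C/EBP partner was searched as TGATGNAA, or TTNCATCA on the other strand, in RefSeq promoter windows of GRCm38.p6 that run from 250 bases before the start to 50 after it. The 10 genes had 12 windows, and 3 of the genes, Chac1, Asns and Trib3, held the element in 1 window each. Of all 27025 genes 4.51% held it in at least 1 window, and of all 32851 windows 3.97% did. The stretches around the element are shown for these 3 genes, in the direction of transcription with the element in capitals, because ATF4 is known to act through such sites.
Chac1, chr2:119350992-119351191, plus strand, element 193 bases before the start: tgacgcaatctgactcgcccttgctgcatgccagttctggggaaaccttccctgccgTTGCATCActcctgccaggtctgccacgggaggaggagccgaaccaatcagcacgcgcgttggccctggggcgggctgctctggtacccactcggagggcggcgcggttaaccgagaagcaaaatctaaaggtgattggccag
Asns, chr6:7693215-7693242, minus strand, element 23 bases before the start: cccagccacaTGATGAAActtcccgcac
Trib3, chr2:152344029-152344056, minus strand, element at base 15 after the RefSeq start: tagctcaggtTTACATCAgccgggcggg
The starts differ between annotations. The Asns element lies inside the GENCODE gene model, which starts upstream of the RefSeq one, and the Trib3 element lies upstream of the GENCODE start. These matches describe the letters in the windows, and binding was not measured.

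After barcodes with fewer than 1000 genes or with 20% or more of mitochondrial UMIs were left out, each library held 12083 to 18211 cells and 161670015 to 239368573 UMIs. Barcodes shared between a pair of libraries numbered 33 to 78, at most 0.563%. Clusters were built without the 10 genes and without the pathway genes given below, and took names from marker genes. The named classes were ISC-like (intestinal stem cells, 9.47 to 12.9% of the kept cells), proliferating-like (3015 to 6794 cells), enterocyte-like (15.0 to 29.4%), Goblet/Paneth-like (9.89 to 17.9%), EEC-like (enteroendocrine cells, 2.33 to 6.58%) and tuft-like (0.421 to 2.14%). Unnamed clusters held 1445 to 2536 cells per library. Levels are UMIs of a gene per 1000000 UMIs (CPM) of the summed cells of a library. RNA released from other cells was not subtracted, and its part in the levels was not tested. Of 13 mesenchymal, endothelial and immune markers, 8 to 13 had a count. Their summed level was 9.94 and 13.1 CPM in -EIPA, 14.0 and 7.33 in +EIPA, 0.619 in -Dox and 1.04 in +Dox. Without Vim, which made up most of it in the 4 WT libraries but not in -Dox or +Dox, it was 0.554 to 1.38 CPM, and the immune marker Tyrobp was at 0 in 4 libraries. Vim was also among the genes that led an EEC-like cluster. The part of the 13 markers in the results was not tested.

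Without EIPA or Dox, the genes followed different cell classes. In the 3 untreated libraries (both -EIPA libraries and -Dox), Phgdh, Psat1, Psph and Shmt2 were highest in proliferating-like cells, while Atf5, Chac1, Trib3 and Ddit3 were highest in enterocyte-like cells. Mthfd2 was highest in EEC-like cells, followed by proliferating-like cells, and the ranges of these classes overlapped. The levels are descriptions, because classes come from clusters of the same cells.

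**Figure D1:**
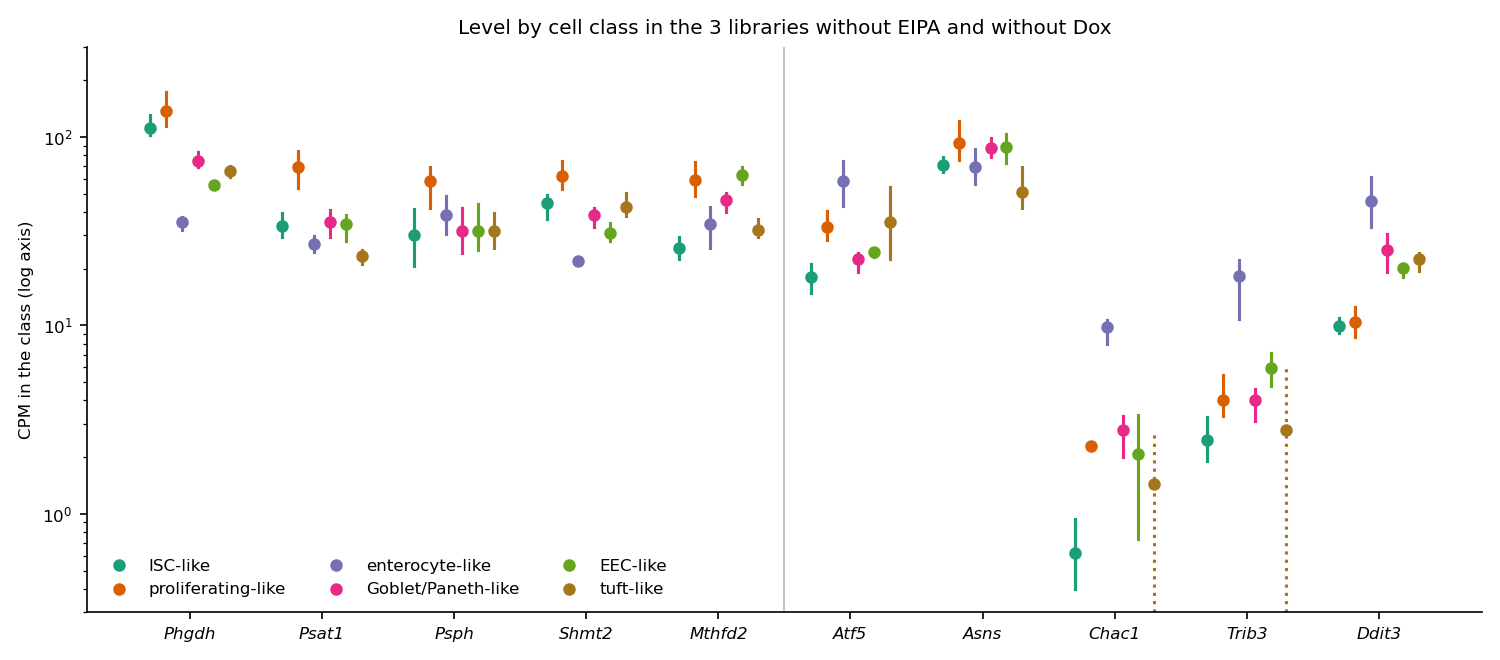
CPM of each gene (log axis) in the 6 cell classes of the 3 libraries without EIPA and without Dox. Points are means, lines run from the lowest to the highest library, and a dotted line reaches a library at 0. Phgdh, Psat1, Psph and Shmt2 peak in proliferating-like cells and Chac1, Trib3 and Ddit3 in enterocyte-like cells.

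Phgdh averaged 137 CPM in proliferating-like cells (115 to 173) and 112 CPM in ISC-like cells (102 to 131), ranges that overlapped. Below these came Goblet/Paneth-like cells at 74.5 CPM, tuft-like at 66.02, EEC-like at 55.8 and enterocyte-like at 35.2, so its level spanned 3.90-fold over the classes. The Goblet/Paneth-like class was mixed. Phgdh averaged 92.9 CPM in its cluster 7, with Dll1 and Spdef among the leading genes. In its clusters 8, 12 and 18 it averaged 52.9, 63.1 and 62.9 CPM, below the tuft-like mean. Shmt2 ran from 62.4 CPM in proliferating-like cells (52.7 to 74.1) to 22.1 CPM in enterocyte-like cells (21.3 to 22.8). Psat1 stood apart in proliferating-like cells, at 69.3 CPM (53.8 to 84.5), and ran from 35.2 down to 23.5 CPM in the other classes, whose neighbours overlapped. Psph differed least among the route, at 58.5 CPM in proliferating-like cells (42.2 to 69.6) and 30.1 to 38.7 CPM elsewhere, with overlap between all neighbours. The enzymes did not share an order: ISC-like cells ranked next to proliferating-like cells for Phgdh and Shmt2 but last for Psph and Mthfd2 (30.1 and 25.8 CPM).

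Chac1 had the steepest gradient of the 10 genes. It averaged 9.77 CPM in enterocyte-like cells (8.01 to 10.7) and 0.622 CPM in ISC-like cells (0.399 to 0.945), 15.7-fold apart. Trib3 averaged 18.2 CPM in enterocyte-like cells (10.9 to 22.3) and 2.48 in ISC-like cells, and Ddit3 45.9 CPM (33.3 to 61.1) and 9.94. For Chac1, Trib3 and Ddit3 every untreated library was higher in its enterocyte-like cells than any was in the class ranked next. Atf5 averaged 58.6 CPM in enterocyte-like cells (43.2 to 74.3), and overlapped tuft-like cells, which averaged 35.3 CPM (22.5 to 54.1). Asns varied least, from 92.7 CPM in proliferating-like to 51.2 in tuft-like cells, a 1.81-fold span in which all neighbouring classes overlapped.

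Among single clusters, Trib3 and Atf5 were highest in enterocyte-like cluster 9, led by Apoa4 and Apob, genes of mature absorptive cells. Trib3 averaged 38.0 CPM there (16.2 to 52.8) and Atf5 89.1 CPM (51.8 to 116). Cells of cluster 9 held few UMIs, with a median of 0.342 of the library median. It was 1.05 in enterocyte-like clusters 3 and 4 and 0.964 in cluster 20. Next for Atf5 came unnamed cluster 13, led by Gm42418 and Lars2, at 63.3 CPM and 0.264 of the library median. The part of cell quality in these levels was not tested. Chac1 and Ddit3 were highest in enterocyte-like cluster 20, led by Tm4sf4 and Cyp3a13, at 18.4 CPM (13.2 to 27.6) and 69.1 CPM (21.5 to 138). For Ddit3 cluster 9 was close, at 67.5 CPM (39.0 to 91.6). Asns and Mthfd2 were highest in EEC-like cluster 14, led by the enterochromaffin genes Chgb, Chga, Tac1 and Tph1, at 128 CPM (106 to 150) and 74.8 CPM (69.3 to 82.3). For each of these 6 genes the range overlapped that of the cluster ranked next, and for Mthfd2 it lay inside that of proliferating-like cluster 0 (60.1 to 86.4).

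Over 36 sums, 6 libraries by 6 classes, the mean log2(CPM + 1) of Phgdh, Psat1, Psph, Shmt2 and Mthfd2 and that of Atf5, Asns, Chac1, Trib3 and Ddit3 had a Pearson r of -0.03. The genes of a group did not all move together. Between the groups, single pairs ran from -0.85 (Phgdh and Ddit3) to 0.83 (Mthfd2 and Asns). Asns had an r of -0.30 (Ddit3) to 0.30 (Atf5) with its own group, and of 0.79 with Psat1. The gene most like the serine route was Pck2, the mitochondrial phosphoenolpyruvate carboxykinase, with r = 0.84. The next 7 were Sgo1, Pbk, Ect2, Kif15, Pmf1, Top2a and Cenpm, with r from 0.79 to 0.82, most of which act in mitosis. The 8 genes most like the other group were Bcl2l15, Cth, Cyp3a13, Dgat2, Apoc3, Slc3a2, Apoa1 and Mogat2, with r from 0.85 to 0.87, of which Dgat2, Apoc3, Apoa1 and Mogat2 act in lipid absorption and export. These are correlations across sums that share libraries and depth, over 7864 genes with a mean of 10 CPM or more, and are given with no p. Top2a, Apoc3 and Apoa1 were among the markers that named the classes, so these likenesses partly restate the levels by class.

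The next comparison asked how these transcripts differed with EIPA. Over all cells kept, each of the 10 genes was higher with EIPA in both experiments. The experiments are +EIPA replicate 1 over -EIPA replicate 1 and replicate 2 over replicate 2. The share of all genes higher in both was not counted. Libraries of a group also differed between themselves. In -EIPA, replicate 1 was above replicate 2 for 10 of 10 genes (53.0% of all genes tested), by a median of 0.51 on the log2 scale, and for 8 of 10 in +EIPA (62.5%), by 0.42. In sums over all cells, a larger share of a cell class and more RNA per cell cannot be told apart.

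**Figure D2:**
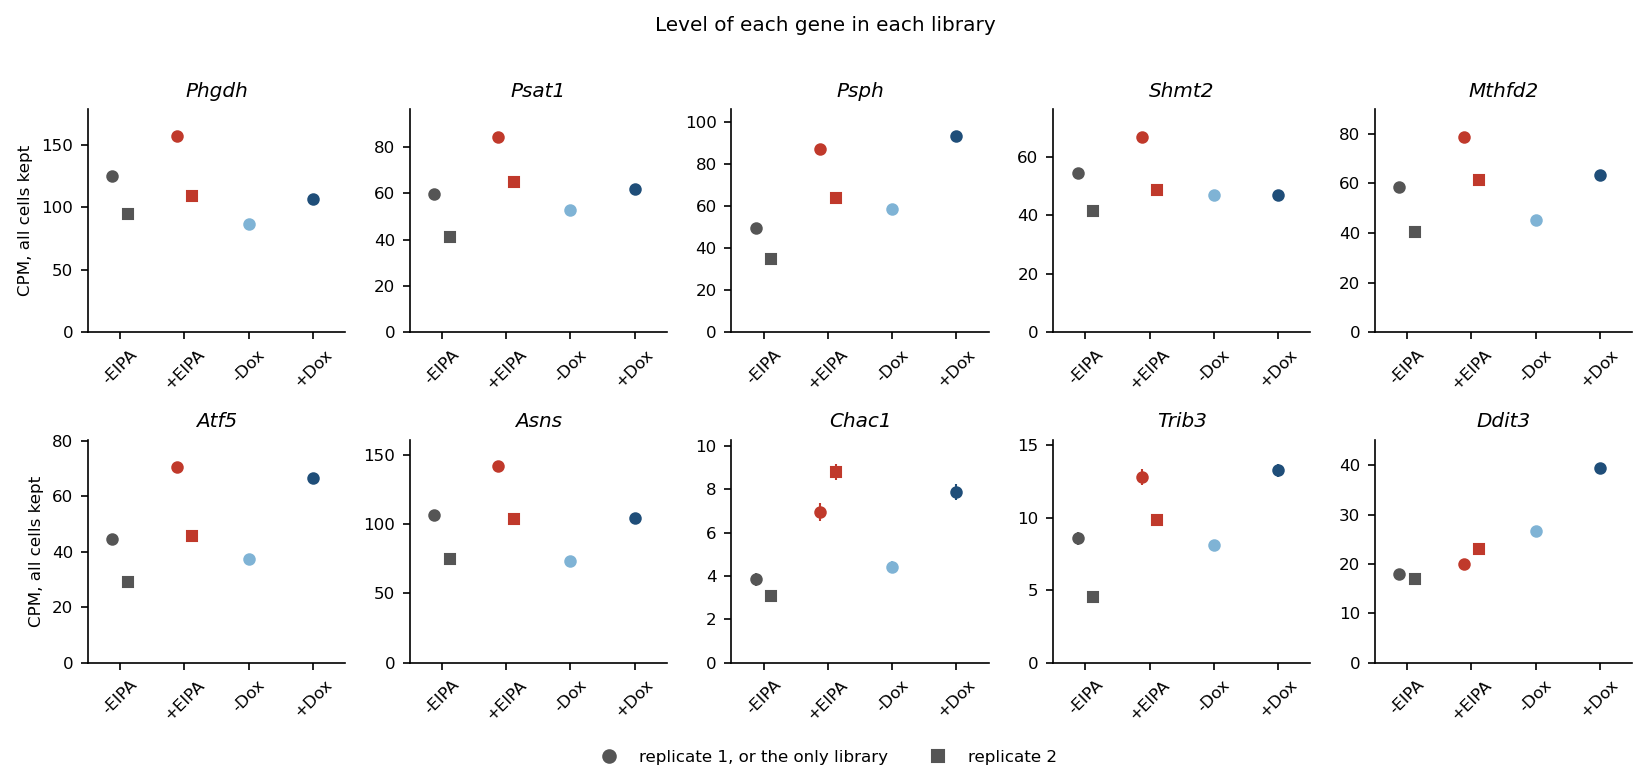
CPM of each gene over all cells kept in the -EIPA, +EIPA, -Dox and +Dox libraries. Circles are replicate 1 or the only library, squares are replicate 2, and bars are 95% Poisson intervals of counting, often smaller than the point. For most genes replicate 1 lies above replicate 2 in both groups, and each +EIPA library lies above the -EIPA library of the same number.

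Psph was at 49.3 and 34.9 CPM in -EIPA and 87.1 and 64.0 CPM in +EIPA. Both +EIPA libraries lay above both -EIPA libraries, and the log2 fold change was 0.92 ± 0.21 (SE, n = 2 per group). Psat1, which precedes it in the pathway, was at 59.7 and 41.0 CPM without and 84.5 and 64.7 CPM with EIPA, a log2 fold change of 0.65 ± 0.21. Phgdh, at the head of the pathway, was at 125 and 94.7 CPM without and 158 and 109 CPM with EIPA, 0.36 ± 0.21 on the log2 scale, and its groups overlapped. Shmt2 overlapped too, at 54.5 and 41.5 CPM against 66.9 and 48.8 CPM (0.35 ± 0.19). Mthfd2 was at 58.5 and 40.4 CPM against 78.8 and 61.5 CPM (0.59 ± 0.21), without overlap.

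Chac1 had the largest fold change of the 10 genes. It was at 3.83 and 3.09 CPM in -EIPA and 6.95 and 8.80 CPM in +EIPA, 1.28 ± 0.19 on the log2 scale, with no overlap. Trib3 was at 8.55 and 4.53 CPM without and 12.8 and 9.85 CPM with EIPA (0.87 ± 0.32). Atf5 was at 44.7 and 29.0 CPM against 70.4 and 45.5 CPM (0.73 ± 0.28). Both had groups that did not overlap, though the margin for Atf5 was under 1 CPM. Asns was at 106.5 and 74.6 CPM against 142 and 103.5 CPM (0.52 ± 0.22), and overlapped. Ddit3 was at 17.9 and 17.0 CPM against 20.1 and 23.0 CPM (0.39 ± 0.11). Atf4 itself was at 148 and 142 CPM without and 136 and 129 CPM with EIPA, -0.05 ± 0.07 on the log2 scale after TMM scaling.

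By edgeR's quasi-likelihood test without the experiment as a term, 0 of the 10 genes passed a Benjamini-Hochberg adjusted p of 0.05, as did 0.0% of the 15890 genes tested, and the adjusted p of the 10 ran from 0.239 to 0.673. At an unadjusted p under 0.05, counted in either direction here and below, there were 6 of the 10 genes and 1601 of all genes. DESeq2 called 2 of the 10 (3.92% of all genes with a DESeq2 adjusted p were called as higher). With the experiment as a block, 9 of 10 genes were called as higher, each but Ddit3 (edgeR adjusted p = 0.0771), against 4.47% of all genes. The adjusted p of the 9 ran from 0.00898 for Psph to 0.0407 for Trib3. The block leaves 1 residual degree of freedom, and its small p-values rest on a spread shared across genes. For 7 of 10 genes both +EIPA libraries were above both -EIPA libraries, as for 13.5% of all genes. The median log2 fold change was 0.62 over the 10 genes and -0.003 over all genes tested. Since the genes were chosen with this contrast known, nothing is read from these shares. The sizes depended on single libraries. Each of the 10 stayed above 0 when 1 library was left out, but 8 moved by over 1.5 times, all but Psph and Chac1. Phgdh was lowest, at 0.11, without +EIPA replicate 1, and highest, at 0.57, when +EIPA replicate 2 was dropped. Shmt2 (0.15 to 0.54) and Atf5 (0.43 to 1.06) had their lowest values without +EIPA replicate 1 and their highest when -EIPA replicate 1 was dropped. Psat1 (0.41 to 0.93), Mthfd2 (0.35 to 0.86), Asns (0.29 to 0.78) and Trib3 (0.49 to 1.38) were lowest without -EIPA replicate 2 and highest without -EIPA replicate 1. Ddit3 was at 0.25 without +EIPA replicate 2 and at 0.52 when +EIPA replicate 1 was dropped.

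Within classes, the median log2 fold change of the 10 genes ran from 0.48 in enterocyte-like to 0.77 in proliferating-like cells. In proliferating-like cells, Psph was at 63.7 and 42.2 CPM without EIPA and at 123 and 89.9 CPM with it (1.07 ± 0.23 on the log2 scale, edgeR adjusted p = 0.61 without the block, and 1.08 ± 0.05, edgeR adjusted p = 8.81e-06, with it). Atf5 was at 40.6 and 28.5 CPM against 73.9 and 48.6 CPM (0.89 ± 0.24) and Chac1 at 2.30 and 2.19 against 6.12 and 8.43 CPM (1.77 ± 0.21), neither with overlap. Psat1, Mthfd2, Asns and Trib3 also had groups that did not overlap there, with log2 fold changes of 0.79, 0.75, 0.68 and 1.15, so that 7 of the 10 genes were higher without overlap, as were 8.18% of all genes. Phgdh (0.51 ± 0.22), Shmt2 (0.53 ± 0.20) and Ddit3 (0.12 ± 0.13) overlapped. Leaving out 1 library moved 7 of the 10 by over 1.5 times, all but Psph, Chac1 and Trib3. Psat1 ran from 0.51 to 1.13, Mthfd2 from 0.49 to 1.06 and Asns from 0.43 to 0.99, lowest without -EIPA replicate 2 and highest without -EIPA replicate 1. Phgdh (0.25 to 0.74), Shmt2 (0.32 to 0.77) and Atf5 (0.58 to 1.14) were lowest without +EIPA replicate 1 and highest when -EIPA replicate 1 was dropped. In the other classes the number so moved was 5 of 10 (ISC-like), 9 (enterocyte-like), 6 (Goblet/Paneth-like), 7 (EEC-like) and 7 of the 9 tested (tuft-like). Ddit3 was at 8.69 and 10.1 CPM without and 9.25 and 10.2 CPM with EIPA. The test without the block called 0 of 10 genes (0.0% of all genes), and 8 of 10 had an unadjusted p under 0.05, as had 604 of all 13737 genes. DESeq2 called 6 (0.495%) and edgeR with the block 9 (3.13% of all genes).

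In ISC-like cells Psat1 was at 32.8 and 29.5 CPM without and 60.4 and 48.6 CPM with EIPA (0.87 ± 0.13), a gap wider than the spread within either group. Psph was at 28.4 and 20.6 CPM against 51.8 and 38.0 CPM (0.94 ± 0.20). Chac1 had the largest log2 fold change of any gene and class, 2.07 ± 0.37, at 0.523 and 0.399 CPM against 1.76 and 1.89 CPM. It rested on few molecules, 8 and 10 UMIs without EIPA and 24 and 36 with it. Ddit3 was lower in both experiments, at 9.15 and 9.73 CPM against 6.52 and 8.83 CPM (-0.22 ± 0.19), which neither edgeR fit nor DESeq2 called, and Atf4 was at 97.9 and 101 CPM against 77.3 and 73.3 CPM (-0.33 ± 0.08). The block called Atf4 as lower in this class (edgeR adjusted p = 7.88e-06, and 1.0 without the block) and 8 of the 10 genes as higher (4.04% of all genes), while the test without it called 0 (0.0%) and DESeq2 2 (0.0998%), and 7 of 10 had an unadjusted p under 0.05, as had 468 of all 12022 genes. These sizes depended on the clustering, and 8 of the 10 genes moved by over 1.5 times in this class without batch correction. The log2 fold change was then 1.59 for Psph, 1.36 for Psat1, 1.20 for Mthfd2, 1.43 for Atf5 and 1.17 for Trib3. The uncorrected ISC-like class joined clusters drawn unevenly from the libraries. In 1 of them 48.9% of the cells came from +EIPA replicate 2, and in another 46.5% came from -EIPA replicate 2. A further cluster was 98.1% +Dox cells. The first was also led by Mcm3, Mcm4, Dtl and Hells, as was a proliferating-like cluster. The part of this difference in the values was not tested.

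In enterocyte-like cells the experiments went opposite ways for Phgdh and Shmt2. Phgdh was at 36.1 and 37.6 CPM without and 49.9 and 29.4 CPM with EIPA, higher in experiment 1 and lower in experiment 2. Shmt2 was at 21.3 and 22.1 CPM against 23.5 and 17.5 CPM. Psph was higher in both, at 36.9 and 30.4 CPM against 58.1 and 43.2 CPM (0.72 ± 0.19), and was the 1 gene called with the block (edgeR adjusted p = 0.0271, and 0.172 without it, 3.06% of all genes) and the 1 called by DESeq2 (3.78%). Chac1, most abundant in this class, was at 10.6 and 8.01 CPM against 10.9 and 14.9 CPM. Without the block 0 of 10 were called (0.0%), and 2 had an unadjusted p under 0.05, as had 2181 of all 12739 genes. Without -EIPA replicate 1 the same fit called 4 of the 10 and 6.7% of all genes.

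In Goblet/Paneth-like and EEC-like cells 9 of the 10 genes were higher with EIPA in both experiments, and in tuft-like cells 5 were. Over all genes tested the median log2 fold change was -0.003, 0.002 and 0.007 in these classes. The share of all genes higher in both experiments was not counted. In Goblet/Paneth-like cells Psph was at 29.1 and 24.1 CPM without and 52.2 and 38.9 CPM with EIPA (0.86 ± 0.14), and Psat1 at 35.3 and 29.3 CPM against 55.1 and 42.0 CPM (0.67 ± 0.14). The block called 9 of 10 genes there (4.4% of all genes), the test without it 0 (0.182%) and DESeq2 2 (0.879%), and 8 had an unadjusted p under 0.05, as had 841 of all 12631 genes. That test called 1 of the 10 without +EIPA replicate 1 (1.03% of all genes) and 2 without +EIPA replicate 2 (0.568%). In EEC-like cells Psph was at 25.3 and 25.4 CPM without and 55.1 and 41.7 CPM with EIPA (0.98 ± 0.16), and both +EIPA libraries were well above the -EIPA pair. The block called 6 of 10 (1.49%), the test without it 0 (0.0892%) and DESeq2 1 (0.298%), and 7 had an unadjusted p under 0.05, as had 352 of all 12325 genes. Without +EIPA replicate 2 that test called 3 (0.34%). In tuft-like cells, with 175 to 389 cells per WT library, Psat1 was at 25.1 and 24.3 CPM against 65.5 and 41.6 CPM (1.18 ± 0.25) and was the 1 gene called with the block (0.656%). The test without it called 0 of the 9 genes tested (0.0205%), as did DESeq2 (0.041%), and 4 had an unadjusted p under 0.05, as had 385 of all 9761 genes. The edgeR test without the block called 2 without -EIPA replicate 1 (0.699%). Chac1 was too sparse to test, and Ddit3 was lower in both experiments, at 24.3 and 19.5 CPM against 11.6 and 17.3 CPM, which neither the test with the block nor the one without it called.

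**Figure D3:**
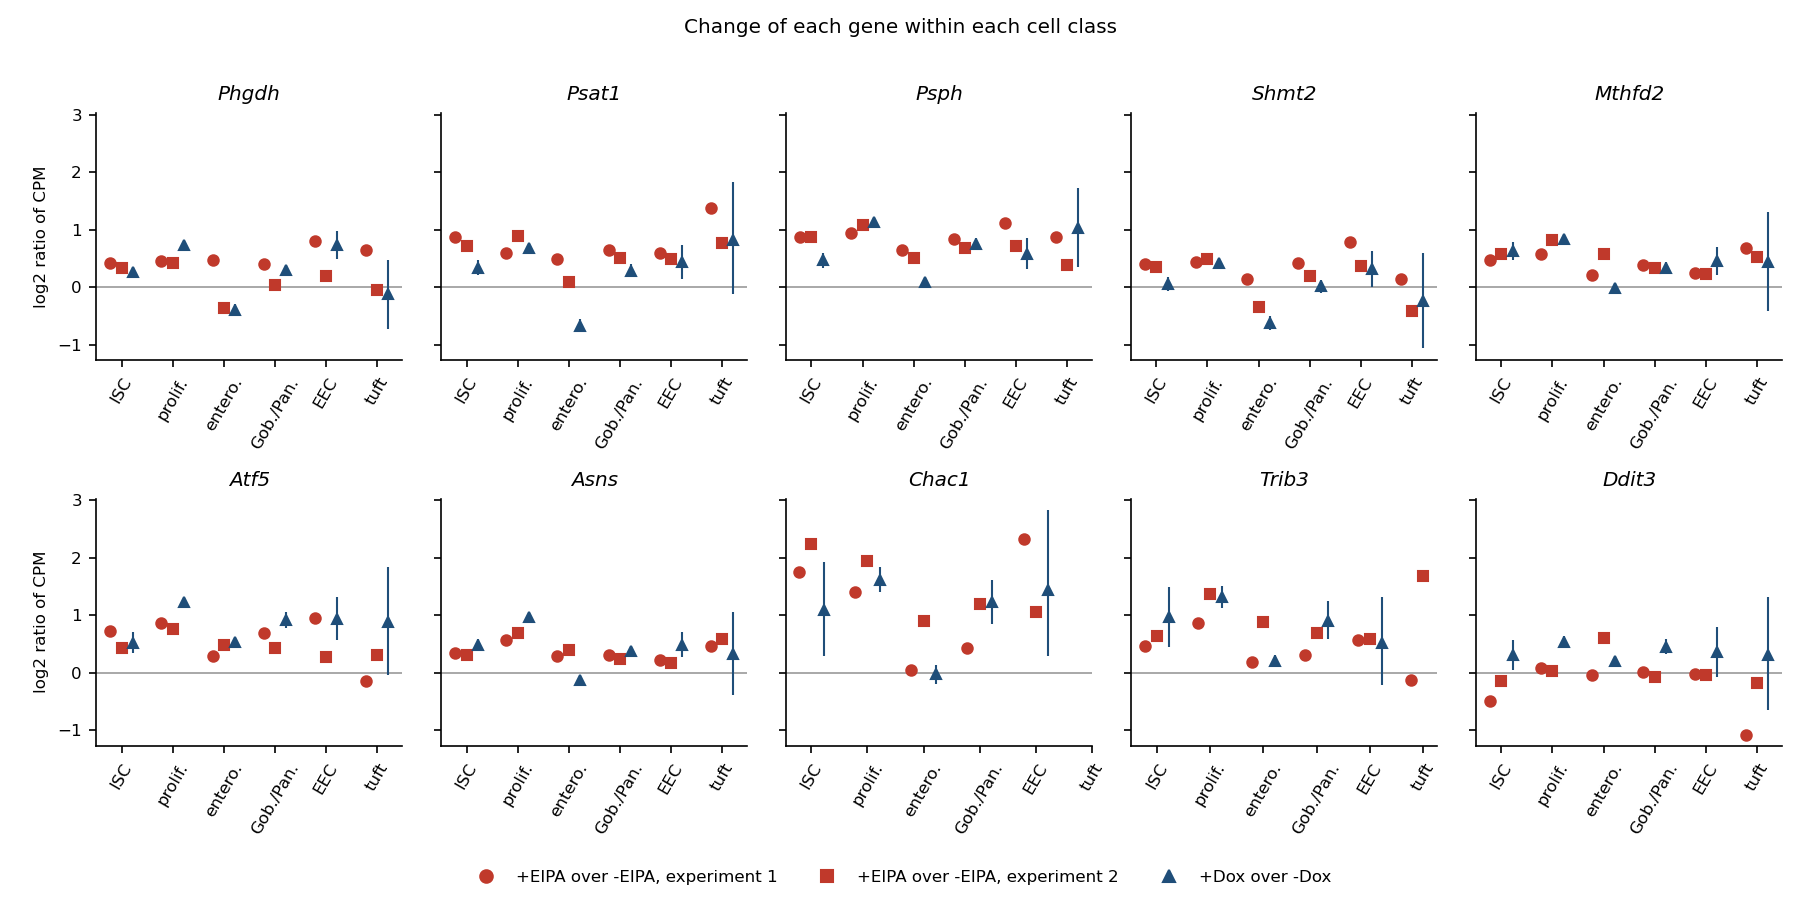
Log2 ratio of CPM of each gene within each cell class, for +EIPA over -EIPA in experiment 1 (circles) and 2 (squares) and for +Dox over -Dox (triangles, with exact 95% intervals of counting). Psph lies above 0 in every class and comparison shown, whereas Phgdh, Psat1 and Shmt2 lie below 0 with Dox in enterocyte-like cells.

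Whether the EIPA effect differed between classes was tested as a class by EIPA term with the library as a block. Against ISC-like cells, the effect in enterocyte-like cells differed by -1.39 ± 0.35 on the log2 scale for Chac1 (edgeR adjusted p = 0.0831) and by 0.71 ± 0.20 for Ddit3 (edgeR adjusted p = 0.109). None of the 10 genes passed the threshold (1.11% of all genes did), and 4 had an unadjusted p under 0.05, as had 2572 of all 13154 genes. For Goblet/Paneth-like against ISC-like cells, 0 of 10 passed too (0.434% of all genes), with Chac1 at -1.13 ± 0.38 (edgeR adjusted p = 0.328) and 1 gene at an unadjusted p under 0.05, beside 1273 of all 12683. Without batch correction of the clusters, these tests called 4 and 8 of the 10 genes and 1.01% and 8.42% of all genes. Those of the 10 all had a smaller effect than in ISC-like cells. That class was then drawn unevenly from the libraries, as given above.

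The share of proliferating-like cells was lower with EIPA, 33.3 and 31.7% against 39.4 and 36.7%, and that of enterocyte-like cells higher, 23.5 and 20.6% against 19.8 and 15.0%. The class mix was then held, with each class at its mean share of UMIs, not of cells, over the 6 libraries. For Phgdh the log2 ratio over all cells went from 0.34 to 0.46 in experiment 1 and from 0.20 to 0.32 in experiment 2. For Ddit3, the most enterocyte-weighted after Chac1 and Trib3, it went from 0.17 to 0.00 and from 0.44 to 0.30. The log2 ratios of Psph, Psat1, Mthfd2, Asns and Shmt2 were larger, and those of Chac1, Trib3 and Atf5 smaller, than over cells as sampled in both experiments.

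The Dox comparison has 1 library per group, so no test is possible. Ratios are given with exact 95% intervals that cover counting error only. Over all cells kept the 10 genes were above a ratio of 1, and 4 were past 1.5-fold. Among 15477 genes with at least 20 UMIs in the pair of libraries, 14.5% were past 1.5-fold higher. The median log2 ratio of those 15477 was -0.025, and the share above 0 was not counted. Atf5 was at 37.3 CPM in -Dox and 66.5 CPM in +Dox, 1.78-fold. Chac1 was at 4.42 and 7.86 CPM (1.78-fold), Trib3 at 8.08 and 13.25 CPM (1.64-fold) and Psph at 58.7 and 93.3 CPM (1.59-fold). Shmt2 was at 46.9 and 47.1 CPM, a log2 ratio of 0.01 (-0.03 to 0.04). Phgdh was at 86.6 and 107 CPM, Psat1 at 53.0 and 61.9, Mthfd2 at 45.2 and 63.3, Asns at 73.1 and 104 and Ddit3 at 26.6 and 39.5 CPM. Atf4 was at 154 and 143 CPM. With the class mix held, 5 of the 10 genes and 9.01% of all genes were past 1.5-fold higher: the log2 ratio of Trib3 went from 0.71 to 0.58, below that fold, and those of Mthfd2 (0.49 to 0.60) and Asns (0.51 to 0.60) went above it. Phgdh went from 0.31 to 0.54, Psat1 from 0.22 to 0.45, Shmt2 from 0.01 to 0.20 and Ddit3 from 0.57 to 0.36.

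Over those of the 10 genes with enough UMIs, the median log2 ratio with Dox was 0.91 in proliferating-like cells, against -0.02 to 0.50 in the other classes. Over all genes with enough UMIs it was -0.04 in proliferating-like cells and -0.11 to -0.01 in the other classes. Proliferating-like cells made up 6794 of 17598 cells in -Dox and 3015 of 12083 in +Dox. Chac1 was at 2.39 and 7.34 CPM there (3.08-fold), Trib3 at 3.29 and 8.24 CPM (2.51-fold), Atf5 at 31.3 and 73.3 CPM (2.34-fold) and Psph at 69.6 and 153 CPM (2.20-fold). Asns was at 75.7 and 148 CPM, Mthfd2 at 54.3 and 97.6, Phgdh at 115 and 192 and Psat1 at 69.4 and 112 CPM. These 8 genes were past 1.5-fold, against 6.94% of genes in that class, and Shmt2 (60.3 and 80.9 CPM) and Ddit3 (12.5 and 18.2 CPM) were not.

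In enterocyte-like cells with Dox, 2 of the 10 genes were past 1.5-fold lower, near the share of all genes (14.9%), and 0 were past it higher (10.4%). Psat1 was at 29.7 CPM in -Dox and 18.7 CPM in +Dox, a log2 ratio of -0.67 (-0.78 to -0.56), and Shmt2 at 22.8 and 14.8 CPM, -0.62 (-0.74 to -0.50). Phgdh was at 32.0 and 24.4 CPM, -0.39 (-0.49 to -0.29), and Asns at 65.1 and 59.4 CPM, -0.13 (-0.20 to -0.07). Atf5 was higher, at 58.4 and 84.3 CPM, and Psph (48.8 and 52.1 CPM) and Chac1 (10.7 and 10.5 CPM) were close to a ratio of 1. Without batch correction of the clusters 1 gene, Atf5, was past 1.5-fold higher (8.95%) and 0 lower (12.5%), with Phgdh at a log2 ratio of -0.25 and Psat1 and Shmt2 at -0.52. With the highest doublet scores removed 0 were higher (10.2%) and 3 lower (16.9%), and Phgdh was at a log2 ratio of -0.97, Psat1 at -1.04 and Shmt2 at -0.86. Phgdh, Psat1, Shmt2 and Asns were lower in this class and higher in at least 2 other classes by intervals of counting that did not reach 0, as were 2.62% of all genes. That pattern was taken from these same values. Genes with few UMIs have wider intervals and meet it less easily, so nothing is read from the share.

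In the other classes 3 or 4 genes were past 1.5-fold, each of them higher. In Goblet/Paneth-like cells 4 genes were past 1.5-fold higher (6.08% of genes), Psph, Atf5, Chac1 and Trib3, with Atf5 at 24.3 and 45.6 CPM. In ISC-like cells 3 were (4.83%), Mthfd2 at 25.2 and 39.2 CPM, Chac1 at 0.945 and 2.01 CPM and Trib3 at 2.25 and 4.39 CPM, or 7 without batch correction (6.64%). There the log2 ratio went from 0.64 to 1.38 for Mthfd2 and from 0.47 to 1.34 for Psph. That of Atf5 went from 0.53 to 1.37 and that of Chac1 from 1.09 to 2.32. Without correction this class held a cluster that was 98.1% +Dox cells. In EEC-like cells Phgdh (53.0 and 88.0 CPM), Atf5 (23.0 and 44.0 CPM) and Chac1 (2.12 and 5.77 CPM) were past it (6.88%). Chac1 rested on few UMIs in -Dox and +Dox, 7 and 48 in EEC-like and 21 and 39 in ISC-like cells. In both classes the intervals of all genes past 1.5-fold reached below that fold. With the highest doublet scores removed, 5 genes were past it in EEC-like cells (7.92%). There the log2 ratio of Psat1 went from 0.44 to 1.63 and that of Phgdh from 0.73 to 1.13. That of Psph went from 0.58 to 0.29 and that of Trib3 from 0.52 to -0.14. Tuft-like cells were only 74 and 53. Psat1, Psph and Atf5 of the 8 genes counted were past the fold there (9.62%), of which the intervals of Psat1 and Atf5 reached below a log2 ratio of 0, and without batch correction 1 was, beside 836 of all 7617 genes counted. Chac1 and Trib3 had 0 UMIs in the -Dox tuft-like cells and were not counted. Outside enterocyte-like cells 0 of the genes were past 1.5-fold lower. The share of all genes that were was 5.66% over all cells, and by class 4.36% (ISC-like), 4.55% (proliferating-like), 4.71% (Goblet/Paneth-like), 4.61% (EEC-like) and 10.3% (tuft-like). The difference between the effects of EIPA and Dox was not tested.

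To see how far the rest of the pathway went along, 8 lists of 111 genes, none of them among the 10, were set beside them over all cells kept. The edgeR test without the block called 0 of the 102 listed genes tested. DESeq2 called 8 as higher and 2 as lower, and edgeR with the block 10 as higher and 1 as lower. Of all genes, DESeq2 called 3.92% and the block 4.47% as higher. As lower, DESeq2 called 76 of all 13733 genes and the block 129 of all 15890. Amino acid transporters had a median log2 fold change with EIPA of 0.35, and 9 of 10 were above 0. Slc7a11, the cystine importer, was at 10.4 and 10.96 CPM without and 18.4 and 18.7 CPM with EIPA (0.88 ± 0.08, edgeR adjusted p = 0.239 without and 0.0110 with the block). Slc3a2, its heavy chain partner, was at 64.9 and 63.0 CPM against 84.4 and 78.5 CPM (0.43 ± 0.07). It was at 54.0 CPM in -Dox and 79.0 CPM in +Dox. In both, replicates lay closer together than for any serine enzyme. Slc1a4, a neutral amino acid carrier, was the third transporter called with the block (0.33 ± 0.08).

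**Figure D4:**
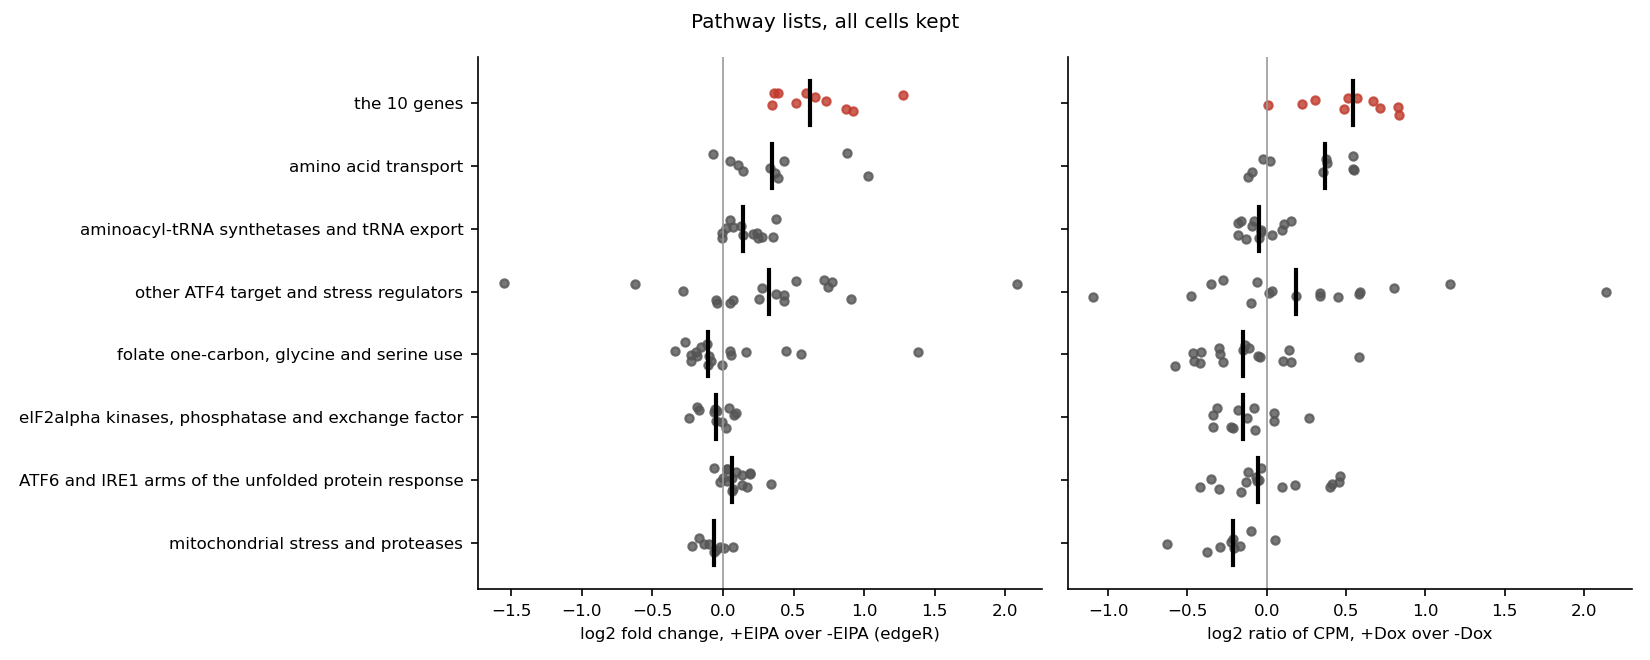
Log2 fold change with EIPA (left, edgeR) and log2 ratio of CPM with Dox (right) over all cells kept, 1 point per gene, for the 10 genes (red) and 7 pathway lists (grey). Black bars are medians, 0.62 and 0.54 for the 10 genes, and the folate, eIF2alpha and mitochondrial lists have medians below 0 on both sides.

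Other ATF4 targets and stress regulators had a median of 0.33, and 13 of the 18 tested were above 0. The block called 6 of the 18 as higher (4.47% of all genes) and 1 as lower (129 of all 15890). Cth, which makes cysteine, was at 83.0 and 65.9 CPM without and 132 and 103 CPM with EIPA (0.74 ± 0.16) and at 87.0 and 131 CPM in -Dox and +Dox. Aldh1l2, a mitochondrial folate enzyme, was at 1.52 and 0.380 CPM against 5.10 and 2.43 CPM (2.08 ± 0.74). It was at 1.13 CPM in -Dox and 4.99 CPM in +Dox. Gpt2, an alanine transaminase, was at 3.37 and 2.37 CPM against 5.07 and 4.15 CPM (0.77 ± 0.21), and Eif4ebp1, Pck2 and Vldlr were the others called as higher. Atf3, an immediate stress factor, was the 1 called as lower. It was at 46.8 and 66.8 CPM without and 20.1 and 16.6 CPM with EIPA (-1.55 ± 0.21, edgeR adjusted p = 0.239 without and 0.0263 with the block). With Dox it was at 38.4 CPM in -Dox and 18.0 in +Dox. Also below 0 were Ppp1r15a (-0.63 with EIPA and -0.48 with Dox), Cbs (-0.28 and -0.06), Ddit4 (-0.04 and -0.35) and Atf4.

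The remaining lists, apart from the mesenchymal, endothelial and immune one, had medians between -0.10 and 0.14. Of the aminoacyl-tRNA synthetases and tRNA export, Nars, the asparaginyl-tRNA synthetase, was called with the block (0.37 ± 0.13), Xpot, a tRNA exporter, was not (0.22 ± 0.10), and the list median was 0.14. Neither edgeR fit called a gene of the folate and glycine list (median -0.10), the eIF2alpha kinase, phosphatase and exchange factor list (-0.05), the ATF6 and IRE1 list of the unfolded protein response (0.07) or the mitochondrial stress list (-0.06). In those lists the genes of smallest p were Shmt1 and Gldc, Eif2ak4 and Eif2b1, Hyou1 and Edem1, and Trap1 and Dele1, with log2 fold changes from -0.24 to 0.34 apart from Gldc, which was at 0.219 CPM or less in every library. Shmt1, the cytosolic counterpart of Shmt2, was at 57.2 and 56.3 CPM without and 48.0 and 43.6 CPM with EIPA, lower in both experiments where Shmt2 was higher. Of the mesenchymal, endothelial and immune list, 6 genes could be tested and neither edgeR fit called any, with Ptprc at 0.65 ± 0.65 and Fcer1g at 0.62 ± 0.40, and the list median was 0.22. With Dox, 0 of the 10 amino acid transporters were past 1.5-fold, and of 17 other ATF4 targets 4 were higher and 1 was lower, against 14.5% and 5.66% of all genes. Of the mitochondrial list 1 of 9 was lower. Of the 5 mesenchymal, endothelial and immune genes with enough UMIs, 3 were higher and 1 lower (median 0.64), with Vim at a log2 ratio of 2.13 and Fcer1g at 1.53. Summed over the whole list of 13 genes, the level was 0.619 CPM in -Dox and 1.04 CPM in +Dox. Their part in the Dox results was not tested.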

How the data were processed

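Organoid cells were profiled with 10x Genomics single-cell 3′ kits. The authors deposited raw UMI counts per gene and barcode, made with Cell Ranger 6.1.2 on GRCm38 (mm10) according to the submitters' processing notes, with no correction for free RNA or doublets stated in the sources used here. Groups came from the sample titles. Of 123544 barcodes, 87954 passed limits of 1000 or more genes and less than 20% mitochondrial UMIs (57.04 to 84.38% per library, median 11477.5 to 17020 UMIs per cell), and intervals cover counting error only. Cells were clustered on count residuals of 3000 variable genes, without the 10 genes and the pathway lists (45 principal components, a re-implemented Harmony correction by library, 20 neighbours, Leiden in igraph 0.11.9 at resolution 0.8) into 22 clusters, 5 of them unnamed, and named from markers.

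Counts were summed per library and class. EIPA was tested with edgeR 4.0.16 (TMM, filterByExpr, quasi-likelihood, Benjamini-Hochberg over all genes tested, threshold 0.05) on 2 against 2 libraries, with DESeq2 1.42.0 as an alternative, and class differences with a class by EIPA term and the library as a block. The p-values measure the spread between these libraries. Libraries of the same number are paired as experiments in the study's source data, and their deviations from the group means correlated at 0.690 over all cells and 0.176 to 0.737 by class, so the number was also used as a block ("experiment"), leaving 1 residual degree of freedom. Dox (1 against 1) was given as log2 ratios of CPM for genes with at least 20 UMIs in both libraries together. On simulated counts the edgeR scripts recovered known changes, but with a spread drawn gene by gene the share of false calls ran above the nominal rate, and with a spread drawn from the trend it was near or below it.

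The members and gene lists were chosen with earlier results of these data known. Named were the 10 members, the genes of each list called at the threshold or else the 2 of smallest p, and the 8 genes most correlated with each of both groups of members. List genes called only with the block, and Atf4, were named after their values were seen. Other alternatives were RLE and library-size scaling, no filter on low counts, leaving out each library, other limits on cells and clusters without batch correction. Removal of the highest doublet scores and a fixed class mix were chosen after seeing the data. Promoter windows are RefSeq's. The level of the edited gene is not reported here.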

Additional observations from a re-analysis of the deposited data

Results flagged for a closer look

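By CPM, Ddit3 was lower with EIPA in both experiments in some classes and higher in both in another. Its log2 ratio of CPM was -0.49 and -0.14 in ISC-like cells, -0.025 and -0.044 in EEC-like cells, where the edgeR log2 fold change after TMM scaling was 0.01 ± 0.15, and -1.072 and -0.171 in tuft-like cells, against 0.09 and 0.024 in proliferating-like cells. The difference between these classes was not tested.

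With Dox, 4 genes were lower in enterocyte-like cells and higher in several other classes, by intervals of counting that did not reach 0, as were 345 of all 13158 genes counted. The pattern was taken from these same values and is harder to meet for genes with few UMIs, so nothing is read from that share. The sizes depended on the processing: with the highest doublet scores removed, the log2 ratio in enterocyte-like cells was -0.97 for Phgdh and -1.04 for Psat1, and that of Psat1 in EEC-like cells was 1.63, while without batch correction Phgdh was at -0.25 and Psat1 and Shmt2 at -0.52 in enterocyte-like cells. For Psat1 the log2 ratio with no cells removed by doublet score was -0.667 in enterocyte-like cells, against 0.343 in ISC-like, 0.684 in proliferating-like, 0.291 in Goblet/Paneth-like and 0.441 in EEC-like cells. For Phgdh it was -0.391, against 0.263, 0.741, 0.306 and 0.733 in the same order. For Asns it was -0.133, against 0.486, 0.97, 0.374 and 0.492. For Shmt2 it was -0.619, against 0.425 in proliferating-like and 0.318 in EEC-like cells. Each group is 1 library, so this difference was not tested.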

How the results depend on the processing

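The edgeR test without the block called 0 of the 10 genes and 0 pathway genes with EIPA, and these counts depended on the processing. Over all cells kept, 1 of the 10 genes was called without a filter on low counts, 2 by DESeq2 and 9 with the replicate block. In ISC-like cells these counts were 7, 2 and 8, in proliferating-like cells 4, 6 and 9, in enterocyte-like cells 5, 1 and 1, in Goblet/Paneth-like cells 5, 2 and 9, in EEC-like cells 0, 1 and 6, and in tuft-like cells 1, 0 and 1. Without the filter, the genes called as higher were 183 of all 22851 over all cells kept and by class, in the same order, 63 of 18027, 56 of 20143, 965 of 19063, 336 of 18914, 20 of 18678 and 67 of 15623. For the pathway genes the counts were 2, 10 and 11. Leaving out a library gave 0 to 4 calls in enterocyte-like cells (4 without -EIPA replicate 1), 0 to 2 in Goblet/Paneth-like cells (1 without +EIPA replicate 1 and 2 without +EIPA replicate 2), 0 to 3 in EEC-like cells (3 without +EIPA replicate 2), 0 to 2 in tuft-like cells and 0 to 1 pathway genes (both highest without -EIPA replicate 1), and 0 in the rest. Without batch correction, the differences between classes had 4 (enterocyte-like) and 8 (Goblet/Paneth-like) calls, and with Dox 7 genes were past 1.5-fold in ISC-like, 1 in enterocyte-like (Atf5, higher, in place of Psat1 and Shmt2, lower) and 1 in tuft-like cells. With the highest doublet scores removed, 5 were in EEC-like cells, and 5 in place of 4 over all cells kept. In proliferating-like cells 9 in place of 8 were past it without batch correction. No share of all genes was counted for the last 2. Removal of doublet scores moved 12 of 68 Dox log2 ratios beyond their counting interval. Without batch correction 16 of 58 moved so, and with strict limits on cells 5 of 10. RLE scaling, and over all cells library-size scaling and other limits on cells, changed no count of EIPA calls. The cause of these changes was not tested.

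Some log2 fold changes turned direction. In enterocyte-like cells, leaving out a library gave -0.168 to 0.557 for Phgdh and -0.149 to 0.237 for Shmt2 (both lowest without +EIPA replicate 1), and Shmt2 was -0.062 with the highest doublet scores removed. For Ddit3 it gave -0.209 to 0.331 in Goblet/Paneth-like cells and -0.019 to 0.039 in EEC-like cells, where removal of doublet scores gave -0.058. In tuft-like cells it gave -0.507 to 0.431 for Shmt2 (-0.001 with all libraries; lowest without +EIPA replicate 1, highest without +EIPA replicate 2) and -0.292 to 0.594 for Atf5 (lowest without -EIPA replicate 2, highest without -EIPA replicate 1), and Shmt2 was 0.486 with doublet scores removed and 0.006 without batch correction. Scrublet's own calls were not used, because they marked 0.0476% and 0.0% of cells in -EIPA and +EIPA replicate 1.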
